A study of Mus musculus with 24 samples.

Results

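The Ptbp, Srrm and Elavl genes encode RNA-binding proteins that set neuronal splicing and mRNA stability. The 9 members are Ptbp1, Ptbp2, Ptbp3, Srrm3, Srrm4, Elavl1, Elavl2, Elavl3 and Elavl4. In GRCm38, Ptbp2 lies at chr3:119718742-119784466, Ptbp3 at chr4:59471868-59549364, Srrm3 at chr5:135806890-135874772 and Srrm4 at chr5:116439275-116591817. Elavl1 lies at chr8:4285382-4325413, Elavl2 at chr4:91250763-91400785, Elavl3 at chr9:22015005-22052023 and Elavl4 at chr4:110203722-110351909. The members were taken by gene symbol from the expression table, which listed 22667 genes. Ptbp3 is listed there under its older symbol, Rod1. All 9 passed the filter on low counts. Their own exons were taken from the splicing table, where 35 of 54141 exon events belong to them.

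The data are poly(A)+ RNA sequencing of mouse ESCs and of cells derived from them. WT cells were compared with slow/slow cells, which carry on both Polr2a alleles an arginine-to-histidine substitution in the largest subunit of RNA polymerase II, and which had been made by successive rounds of gene targeting. There were 3 replicates for each genotype at each of 4 stages, 24 samples in all. The stages were ESCs in 2i medium, NPCs at day 7, PSA-NCAM+ cells purified on beads at day 10, and neurons replated at day 7 and grown for 14 further days. For the NPC and PSA-NCAM+ stages, WT cells had been plated at 10000 and slow/slow cells at 30000 cells per cm2, so genotype and plating density cannot be told apart there. The neurons came from cultures replated at day 7, and their labels give no density of first plating. If it differed in the same way, genotype and plating density cannot be told apart in neurons either. A genotype effect also cannot be told apart from one of the targeted line.

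PTB proteins bind pyrimidine-rich RNA and mostly repress exons. Ptbp1 is the form of non-neuronal cells, Ptbp2 replaces it in developing neurons, and Ptbp3 is a related form found in blood cells. Ptbp1 represses the inclusion of a short exon in the Ptbp2 transcript, and without that exon the reading frame is lost and the transcript is degraded. Srrm4, also called nSR100, and its relative Srrm3 promote the inclusion of neuronal microexons. Elavl1, or HuR, is made in most cells and binds AU-rich RNA, while Elavl2, Elavl3 and Elavl4 are the neuronal Hu proteins.

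Library totals ranged from 32974432 to 104466886 counts. The lowest correlation between replicates of a group was 0.964, in slow/slow PSA-NCAM+ cells, and 0.982 in WT PSA-NCAM+ cells, against at least 0.997 in the other 6 groups. Replicate 1 of the PSA-NCAM+ stage stood apart in both genotypes. Its summed level of 4 mesenchymal markers was 488 CPM (counts scaled to the library's total) for WT and 645 CPM for slow/slow, where the other replicates held 140 to 254 CPM. The calls and genotype changes of PSA-NCAM+ cells are therefore given with and without these libraries.

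The marker levels also differed between the genotypes. The summed level of 8 neuron markers was 99.1 to 108 CPM in WT and 252 to 292 CPM in slow/slow NPCs. In PSA-NCAM+ cells it was 78.5 to 116 CPM in WT and 241 to 556 CPM in slow/slow cells. In neurons the order was the other way, with 4245 to 4602 CPM in WT and 3343 to 3567 CPM in slow/slow cells. The 6 pluripotency markers summed to 1514 to 2051 CPM in WT and 778 to 821 CPM in slow/slow PSA-NCAM+ cells. In neurons they summed to 104 to 138 CPM in WT and 87.2 to 90.9 CPM in slow/slow cells. Cells of both genotypes purified for this neural surface marker thus still held transcripts of pluripotent cells, at a higher level in WT. The 5 progenitor markers summed to 195 to 255 CPM in WT and 455 to 599 CPM in slow/slow PSA-NCAM+ cells. This sum is no measure of progenitors alone. In WT cells it was 273 to 289 CPM in NPCs, 400 to 407 CPM in ESCs and 988 to 1178 CPM in neurons. In neurons the 4 astrocyte markers summed to 138 to 169 CPM in WT and 78.4 to 88.1 CPM in slow/slow cells. Among the 3 of them that were tested, 2 fell and 1 rose (FDR under 0.05), so this sum does not describe every marker. In neurons the mesenchymal markers summed to 215 to 271 CPM in WT and 533 to 568 CPM in slow/slow cells. The part of these differences in the results was not tested, and in such bulk samples fewer cells of a type and less RNA per cell cannot be told apart.

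**Figure D1:**
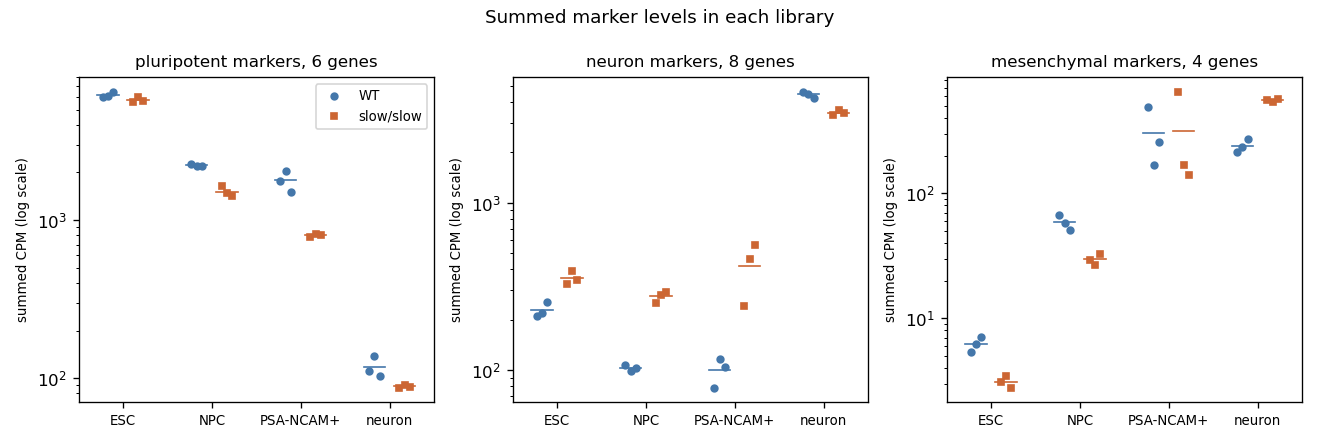
Summed CPM of 6 pluripotency, 8 neuron and 4 mesenchymal marker genes (log axes) in each library by stage; points are libraries, short lines group means, with WT as circles and slow/slow as squares. The sum of the neuron markers is higher in slow/slow than in WT libraries at the ESC, NPC and PSA-NCAM+ stages and lower in neurons. It does not describe every marker: at an FDR under 0.05, 2 of 8 were higher in ESCs and 5 of 8 lower in neurons.

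In WT cells the 9 genes split along their roles from NPCs to neurons. Ptbp1 and Ptbp3 fell, Ptbp2, both Srrm genes and the 3 neuronal Elavl genes rose, and Elavl1 did not pass the test. Thus 8 of 9 passed an FDR of 0.05 in edgeR's quasi-likelihood test, where 80.2% of all 16627 genes tested also did. The rise was 189-fold for Elavl4 (log2 change 7.56 ± 0.34, SE), 99.9-fold for Elavl3, 45.9-fold for Srrm4, 21.0-fold for Srrm3, 16.0-fold for Elavl2 and 4.93-fold for Ptbp2. In slow/slow cells the same step gave 37.3-fold for Elavl4, 30.3-fold for Elavl3, 22.3-fold for Srrm4, 20.5-fold for Srrm3, 4.61-fold for Elavl2 and 2.91-fold for Ptbp2. The fall of Ptbp1 was 2.01-fold in WT and 3.26-fold in slow/slow cells. That of Ptbp3 was 1.31-fold in WT cells and did not pass in slow/slow cells (FDR 0.55). Of the 9 genes, 7 passed in slow/slow cells (75% of all genes).

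From ESCs to NPCs, 8 members passed in WT cells (4 higher, 4 lower, with 65.6% of all genes called) and 5 in slow/slow cells (3 higher, 2 lower, with 62.3% called). From NPCs to PSA-NCAM+ cells, 2 passed in WT cells (41.3% called), Ptbp3 and Srrm4, both higher. In slow/slow cells 5 passed (42.3% called), all higher. Without both replicate 1 libraries these counts were 4 in WT cells, 2 higher and 2 lower, and 7 in slow/slow cells. The shares of all genes in that fit were not counted.

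Between genotypes, most of the members that passed were higher in slow/slow cells. In ESCs, 6 members passed (5 higher, 1 lower), where 40.4% of all genes passed. In NPCs 7 passed, all higher (56.7% of all genes). In PSA-NCAM+ cells 7 passed, again all higher (56.7%). In neurons 4 passed (3 higher, 1 lower, with 51.9% of all genes). These shares of all genes count passes in either direction. Of all genes that passed, 45.7, 51.7, 50.5 and 45.2% were higher, from ESCs to neurons. Along the 4 stages in this order, the median log2 change over the members was 0.50, 1.10, 1.37 and 0.17, and over all genes it was -0.02, 0.01, -0.01 and -0.06. Fitted on the 6 PSA-NCAM+ libraries alone, without a replicate block, 4 members passed (23.3% of all genes in that fit). Ptbp1 (FDR 0.263), Srrm4 (FDR 0.063) and Elavl1 (FDR 0.0676) did not. With the replicate number as a block, 7 passed at this stage, where 62.7% of all genes passed. Without both replicate 1 libraries 8 passed, all higher, and the share of all genes in that fit was not counted. Fitted on the 6 neuron libraries alone, 7 passed, 5 higher and 2 lower (76.3% of all genes in that fit).

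**Figure D2:**
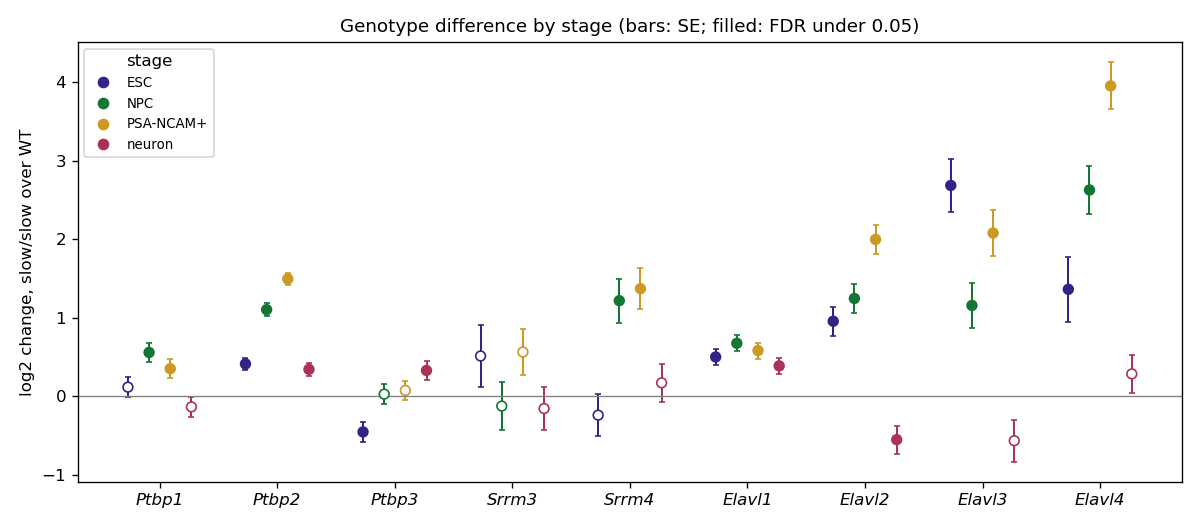
Log2 change of each gene in slow/slow over WT cells at the 4 stages (points, with SE as bars), from edgeR over all 24 libraries; filled points passed an FDR of 0.05. The changes of Ptbp2, Elavl2, Elavl3 and Elavl4 are above 0 at the first 3 stages, and those of Elavl2 and Elavl3 are below 0 in neurons.

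Ptbp1 was the most abundant of the PTB genes. Per length, as the authors' mean RPKM, it stood at 326 in WT ESCs and 103 in WT neurons, against 6.91 and 66.4 for Ptbp2. Its level in WT NPC libraries was 624, 660.5 and 616 CPM, and in slow/slow NPC libraries 954, 909 and 939 CPM. The groups did not overlap, and the change was 1.47-fold (log2 0.56 ± 0.12, FDR 7.06e-04). In PSA-NCAM+ cells the WT libraries held 559, 706 and 636 CPM and the slow/slow libraries 598, 918 and 912 CPM. These overlapped, since slow/slow replicate 1 lay below WT replicates 2 and 3. The change was 0.35 ± 0.12 on the log2 scale (FDR 0.0194). It was 0.45 without both replicate 1 libraries, and it no longer passed without WT replicate 1 (0.27), slow/slow replicate 2 (0.28) or slow/slow replicate 3 (0.29). Ptbp1 did not pass in ESCs (FDR 0.471) or in neurons (FDR 0.381). It lies at chr10:79854427-79864771 in GRCm38, where 3 other genes overlap it on the other strand. Whether the counts used the strand is not stated, so they may hold reads of those genes.

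Ptbp2, the neuronal form, rose at every stage in slow/slow cells. In ESCs WT libraries held 26.7, 25.2 and 22.4 CPM and slow/slow libraries 35.3, 32.0 and 31.7 CPM. In NPCs the values were 45.8, 43.9 and 44.4 CPM in WT and 88.4, 106 and 94.6 CPM in slow/slow libraries. In PSA-NCAM+ cells they were 43.3, 45.2 and 41.9 CPM in WT and 112, 137 and 119 CPM in slow/slow libraries. No group overlapped at these stages, and the changes were 1.33-fold (FDR 3.89e-04), 2.15-fold (FDR 1.62e-09) and 2.82-fold (FDR 2.89e-11). On the log2 scale the last was 1.50, and 1.56 without both replicate 1 libraries. In neurons WT libraries held 224, 221 and 217 CPM and slow/slow libraries 278, 288 and 274 CPM, a 1.27-fold change (FDR 0.00109). Thus slow/slow NPCs lay between WT PSA-NCAM+ cells and WT neurons in their Ptbp2 level, while WT NPCs and WT PSA-NCAM+ cells did not differ beyond their spread (FDR 0.716). Ptbp1 and Ptbp2 were both higher in slow/slow NPCs.

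Ptbp3 was the exception among the PTB genes. In ESCs it fell in slow/slow cells, from 173, 166 and 127 CPM in WT to 124, 100.0 and 116 CPM. The change was -0.45 ± 0.13 on the log2 scale (FDR 0.00715), but it did not pass without WT replicate 1 (-0.35) or slow/slow replicate 2 (-0.35). It did not pass in NPCs (FDR 0.858) or in PSA-NCAM+ cells (FDR 0.627, and 0.521 without both replicate 1 libraries). In neurons WT libraries held 76.7, 82.1 and 82.9 CPM and slow/slow libraries 107, 101 and 95.6 CPM. That change, 0.33 ± 0.13 (FDR 0.0339), no longer passed when any 1 of 5 of the 6 libraries was left out, the exception being slow/slow replicate 3, with values between 0.28 and 0.36.

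Srrm4 was low before the neuron stage. In NPCs WT libraries held 2.08, 1.68 and 1.65 CPM and slow/slow libraries 3.40, 4.18 and 5.03 CPM, a 2.33-fold change (log2 1.22 ± 0.28, FDR 0.00104). In PSA-NCAM+ cells WT libraries held 6.67, 3.05 and 2.75 CPM and slow/slow libraries 6.72, 11.3 and 14.5 CPM. The groups did not overlap but nearly met, since replicate 1 was the highest of WT and the lowest of slow/slow. The change was 1.37 ± 0.26 (FDR 1.53e-04), and 2.16 without both replicate 1 libraries. In neurons the values were 86.8, 79.1 and 81.4 CPM in WT and 93.8, 96.1 and 88.9 CPM in slow/slow libraries, which did not overlap but did not pass (FDR 0.574). They passed in the fit on the neuron libraries alone (FDR 3.61e-04). In ESCs the change was -0.24 ± 0.27 (FDR 0.517).

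Srrm3 passed at no stage between genotypes. It held 0.287 to 0.805 CPM in ESCs of both genotypes and 1.60 to 2.01 CPM in NPCs. In neurons WT libraries held 46.0, 36.0 and 39.1 CPM and slow/slow libraries 33.6, 36.7 and 38.5 CPM, which overlapped (FDR 0.659). In PSA-NCAM+ cells WT libraries held 1.35, 2.30 and 2.52 CPM and slow/slow libraries 1.33, 3.52 and 4.09 CPM. The change there was 0.57 ± 0.29 (FDR 0.106), and 0.66 (FDR 9.85e-04) without both replicate 1 libraries. Srrm3 and Srrm4 each overlap an antisense gene, and Ptbp2, Ptbp3 and Elavl2 a pseudogene on the other strand, so their counts carry the same doubt on strand.

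Elavl1 varied least of the 9 genes over the 24 libraries, with an SD of 0.31 on the log2(CPM + 1) scale. WT libraries held 92.9 to 135 CPM and slow/slow libraries 130.0 to 189 CPM over all 4 stages. In ESCs all 3 WT libraries held 127 CPM, and the slow/slow libraries 183, 174 and 182 CPM. Elavl1 was higher in slow/slow cells at each stage, by 0.50 ± 0.10, 0.68 ± 0.10, 0.58 ± 0.10 and 0.39 ± 0.10 on the log2 scale from ESCs to neurons (FDR 5.34e-04, 1.51e-05, 6.74e-05 and 0.00315). Without both replicate 1 libraries the change in PSA-NCAM+ cells was 0.62. The coding gene Ccl25 overlaps Elavl1 on the other strand, with the same doubt on strand. It lies on chromosome 8, where the 865 genes tested had a median log2 change of 0.45, 0.49, 0.46 and 0.44 at these stages, and 55 to 56.6% of them passed as higher. The median over all genes was between -0.06 and 0.01. The chromosomes of the other members had medians from -0.13 to 0.09. The part of the shift of chromosome 8 in the change of Elavl1 was not tested.

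**Figure D3:**
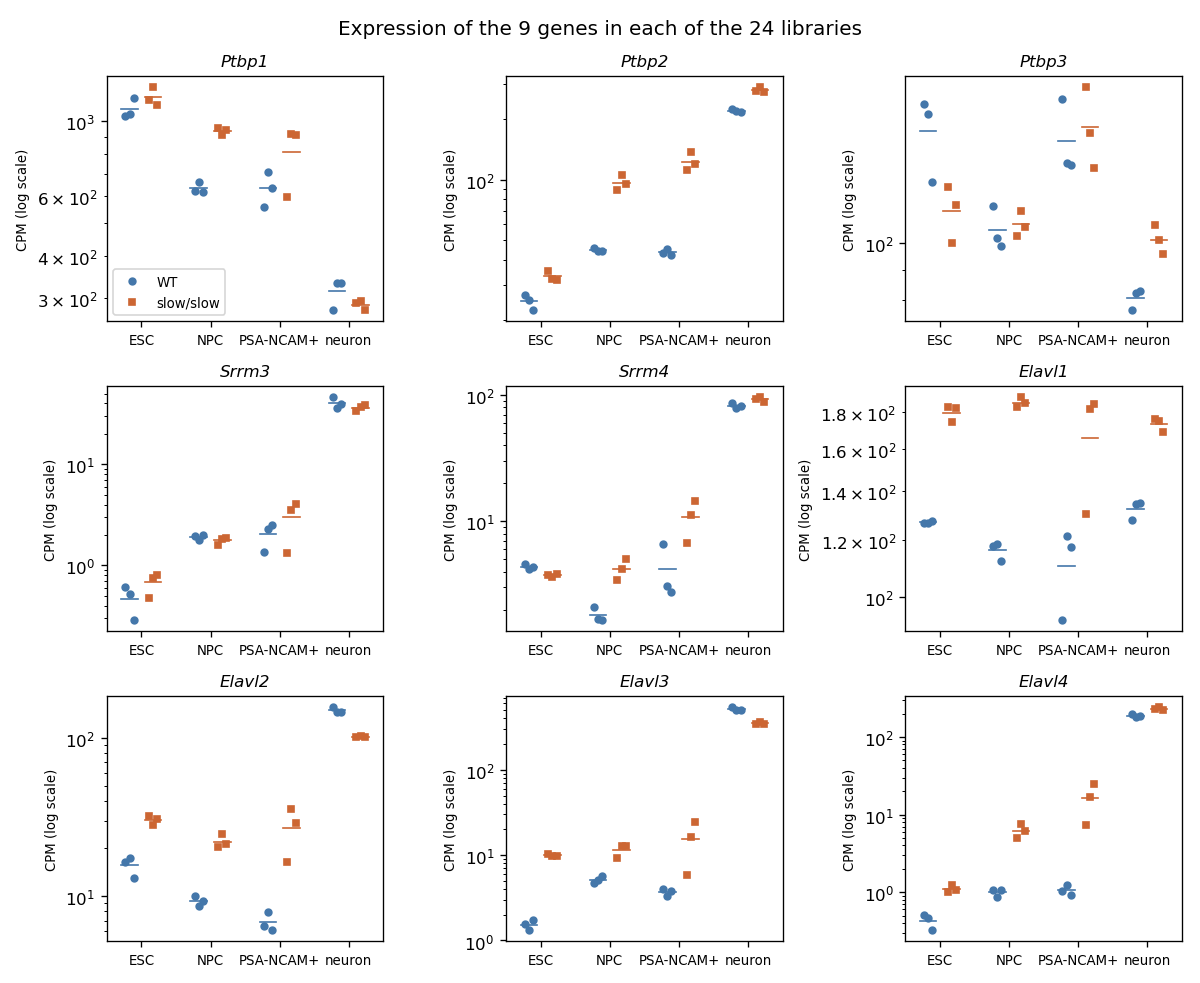
CPM of the 9 genes (log axes, each with its own range) in every library by stage; points are libraries and short lines group means, with WT as circles and slow/slow as squares. Ptbp1 is lowest in neurons, where Ptbp2, Srrm3, Srrm4, Elavl2, Elavl3 and Elavl4 are highest, and slow/slow replicate 1 is the lowest of its PSA-NCAM+ group for Elavl2, Elavl3 and Elavl4.

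The neuronal Elavl genes held the largest genotype changes. Elavl3 in ESCs was at 1.55, 1.32 and 1.72 CPM in WT and 10.3, 9.86 and 9.69 CPM in slow/slow libraries, 6.43-fold higher (log2 2.68 ± 0.33, FDR 2.29e-06). In NPCs it held 4.70, 5.09 and 5.70 CPM in WT and 9.32, 12.7 and 12.8 CPM in slow/slow libraries, 2.23-fold higher (FDR 0.00216). In PSA-NCAM+ cells it held 3.98, 3.33 and 3.80 CPM in WT and 5.78, 16.3 and 24.6 CPM in slow/slow libraries, 4.23-fold higher (FDR 6.38e-06). Its log2 change there was 2.08, and 2.52 without both replicate 1 libraries. All 3 slow/slow ESC libraries thus lay above all 3 WT NPC libraries, and far under the 504 to 540.1 CPM of WT neurons. In slow/slow neurons it held 343, 362 and 345 CPM. These values did not overlap with WT, but the change of -0.56 ± 0.27 did not pass (FDR 0.0816). It passed in the fit on the neuron libraries alone (FDR 1.36e-06). Elavl3 overlaps another coding gene on its own strand, so its counts are uncertain in part.

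Elavl4 was nearly silent before the neuron stage in WT cells, at 0.323 to 1.24 CPM. In slow/slow ESCs it held 0.995, 1.25 and 1.05 CPM against 0.501, 0.459 and 0.323 CPM in WT, 2.57-fold higher (FDR 0.0123). That call was lost without WT replicate 3 (FDR 0.0522). In slow/slow NPCs it held 4.93, 7.52 and 6.19 CPM, 6.18-fold above WT (FDR 6.65e-07). In slow/slow PSA-NCAM+ cells it held 7.39, 16.9 and 24.7 CPM, 15.5-fold above WT (log2 3.95 ± 0.30, FDR 2.13e-09), and the log2 change was 4.28 without both replicate 1 libraries. In neurons WT libraries held 196, 183 and 188 CPM and slow/slow libraries 230.0, 241 and 220.3 CPM, a change of 0.29 ± 0.24 that did not pass (FDR 0.330) but passed in the fit on the neuron libraries alone (FDR 1.32e-05).

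Elavl2 went from higher to lower. In ESCs WT libraries held 16.5, 17.5 and 12.95 CPM and slow/slow libraries 32.2, 28.3 and 30.5 CPM, 1.94-fold higher (FDR 2.94e-04). In NPCs the values were 10.1, 8.60 and 9.28 CPM in WT and 20.3, 24.7 and 21.3 CPM in slow/slow libraries, 2.37-fold higher (FDR 1.23e-05). In PSA-NCAM+ cells they were 6.45, 7.92 and 6.09 CPM and 16.5, 35.8 and 29.1 CPM, a log2 change of 2.00 ± 0.19 (FDR 3.59e-08), and 2.22 without both replicate 1 libraries. In neurons WT libraries held 156, 146 and 145 CPM and slow/slow libraries 101, 103 and 101 CPM. The change was -0.55 ± 0.18 on the log2 scale (FDR 0.0131), and it did not pass under upper-quartile scaling (-0.41, FDR 0.0612). All 3 slow/slow libraries lay above all WT libraries at the first 3 stages and below them in neurons.

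Whether the genotype change itself differed between stages was tested as an interaction. From ESCs to NPCs the change increased for Ptbp2 and Srrm4 and decreased for Elavl3 (3 of 9, with 24.6% of all genes called). From NPCs to PSA-NCAM+ cells it increased for Ptbp2 and Elavl4 (2 of 9, with 14.6% called). Without both replicate 1 libraries 6 passed, and the share of all genes in that fit was not counted. Leaving out single libraries gave 0 to 5: 0 without slow/slow NPC replicate 1, and 5 without slow/slow PSA-NCAM+ replicate 1. From NPCs to neurons it decreased for Ptbp1, Ptbp2, Srrm4, Elavl2, Elavl3 and Elavl4 (6 of 9, with 55.1% called), by between 0.69 and 2.34 on the log2 scale.

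Of 16 related regulators on a fixed list (PTB partners, other SR-related proteins, Rest and its partner, and AU-rich element binding proteins), 5 rose in slow/slow ESCs. In NPCs 10 rose and 1 fell. PSA-NCAM+ cells had 11 that rose, and neurons 7. Of all genes, 40.4, 56.7, 56.7 and 51.9% passed at these stages, in either direction. Fits on single stages called 9 in ESCs, 4 in PSA-NCAM+ cells and all 16 in neurons. In those fits 62.4, 23.3 and 76.3% of all genes passed, in the same order. The largest changes in ESCs were those of Zfp36l2 (log2 0.75 ± 0.15, FDR 3.42e-04), Matr3 (0.43) and Raver1 (0.40). In NPCs Zfp36, which promotes decay of AU-rich mRNAs, fell (log2 change -2.12 ± 0.44, FDR 4.60e-04), while Hnrnpd (1.01) and Raver1 (1.01) rose. In PSA-NCAM+ cells Raver2, a PTB corepressor, rose by 1.58 ± 0.12 (FDR 2.15e-09), Matr3 by 0.80 and Tia1 by 0.69. In neurons Zfp36 rose by 1.94 ± 0.47 (FDR 0.00188), Zfp36l1 by 0.98 and Raver2 by 0.60. Rest, a repressor of neuronal genes whose transcript is a splicing target of Srrm4, passed at none of the 4 stages in the fit over all 24 libraries. It was among the 16 called in the fit on the neuron libraries alone.

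Over the 24 libraries, the genes whose centred log2(CPM + 1) values lay closest to those of a member were Trip13 and Nsun2 for Ptbp1, with a root-mean-square difference of 0.13 for both. For Elavl2 they were Stmn2 (0.32) and Pou4f1 (0.33), and for Elavl4 Nell2 (0.41) and Mapk10 (0.42). Those for Elavl1 were D030016E14Rik (0.11) and Rcbtb1 (0.12), and those for Ptbp2 were Zfp358 (0.20) and Zfp334 (0.22). For Ptbp3 they were Ero1l and Alkbh5 (0.18 for both), for Srrm3 Nxph4 (0.26) and Gpc2 (0.27), and for Srrm4 Pcdhb11 (0.35) and Clvs1 (0.38).

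The splicing of the members turned on a few short exons. Their sequences are shown 5′ to 3′ from the GENCODE transcripts of GRCm38, so that paralogues can be compared. Each exon was matched to the splicing table by gene, exon length and both flanking intron lengths, except that of Elavl3, where only the upstream intron matched. In GRCm38 the exons of Ptbp1 (chr10:79862014-79862047, plus strand), Ptbp2 (chr3:119724612-119724645, minus strand) and Ptbp3 (chr4:59546149-59546182, minus strand) are coding in at least 1 transcript. So are those of Elavl2 (chr4:91254141-91254179), Elavl3 (chr9:22024674-22024712) and Elavl4 (chr4:110209740-110209778), all on the minus strand. In the first pair, capitals mark the 26 of 34 bases that Ptbp1 and Ptbp2 share (76.5%). The 34-base exon of Ptbp3 shares 5 of 34 bases with either and is printed in lower case.
Ptbp1: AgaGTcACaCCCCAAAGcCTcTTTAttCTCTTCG
Ptbp2: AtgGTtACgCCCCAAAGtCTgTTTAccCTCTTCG
Ptbp3: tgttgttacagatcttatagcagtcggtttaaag
In the 39-base exon of the neuronal Elavl genes, capitals mark the 32 bases that all 3 share. Between pairs, identity is 87.2% for Elavl2 and Elavl3, 84.6% for Elavl2 and Elavl4 and 89.7% for Elavl3 and Elavl4.
Elavl2: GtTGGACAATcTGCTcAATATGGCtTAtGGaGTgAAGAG
Elavl3: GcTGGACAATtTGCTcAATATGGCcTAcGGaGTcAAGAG
Elavl4: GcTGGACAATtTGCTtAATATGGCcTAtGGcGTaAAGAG
The length of the 34-base exons is not a multiple of 3, and that of the 39-base exons is. What skipping does to the protein was not tested, and the exon of Ptbp3 is not a homologue of the other 34-base exons by sequence.

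Exon inclusion is given as PSI, the percent of transcripts that hold the exon. An exon was called when the groups' mean PSI differed by over 10 points with a posterior probability over 0.95. Of the 35 member exons, 21 could be tested in at least 1 comparison and 13 passed the quality filters in all 24 libraries. Between genotypes, 0 of 14 were called in ESCs, where 0.809% of all exons tested were. In NPCs 0 of 13 were called (2.93% of all). PSA-NCAM+ cells gave 1 of 14 (0.966%), and neurons gave 1 of 21 (3.55%). By limma on the read ratios, with an FDR under 0.05 and the same PSI difference, 1 was called in neurons and 0 at each earlier stage. Among the steps, 1 of 14 was called from ESCs to NPCs in slow/slow cells (0.763%) and 1 of 14 from NPCs to neurons in slow/slow cells (3.72%). In the other 4 steps 0 were called, where 2.42%, 1.36% and 6.48% of all exons were called in WT cells (to NPCs, PSA-NCAM+ cells and neurons) and 0.794% from slow/slow NPCs to PSA-NCAM+ cells. None of the 27 to 62 introns or of the 12 to 15 alternative splice sites of the members that could be tested was called in any comparison.

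The 34-base exon of Ptbp2 (chr3:119427530-119427563 in mm9), whose skipping is promoted by Ptbp1, was mostly included at all stages in the transcripts present. Transcripts degraded after skipping are not counted, so PSI may overstate the splicing in of this exon. In WT ESCs its PSI was 82.3, 91.0 and 91.1%, and in slow/slow ESCs 77.5, 81.4 and 89.2%, which overlapped. In NPCs it was 86.2, 91.3 and 86.9% in WT and 92.1, 95.0 and 94.7% in slow/slow libraries, which did not overlap but differed by only 5.78 points. In PSA-NCAM+ cells it was 74.5, 81.3 and 90.1% in WT and 89.4, 97.0 and 95.3% in slow/slow libraries. This difference of 11.9 points was called (posterior probability 0.954), although the groups overlapped. It was 10.5 points without both replicate 1 libraries and 8.22 points without WT replicate 1 alone, and the call was also lost without WT replicate 2 or slow/slow replicate 2 or 3. It was not called by limma, with or without the replicate number as a block. In neurons all 6 libraries were between 96.4 and 98.9%. From ESCs to NPCs the exon rose by 11.2 points in slow/slow cells (posterior probability 0.982), and by 8.62 points, not called, without slow/slow ESC replicate 1. Limma did not call this step (FDR 0.183, and 0.315 with the block).

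**Figure D4:**
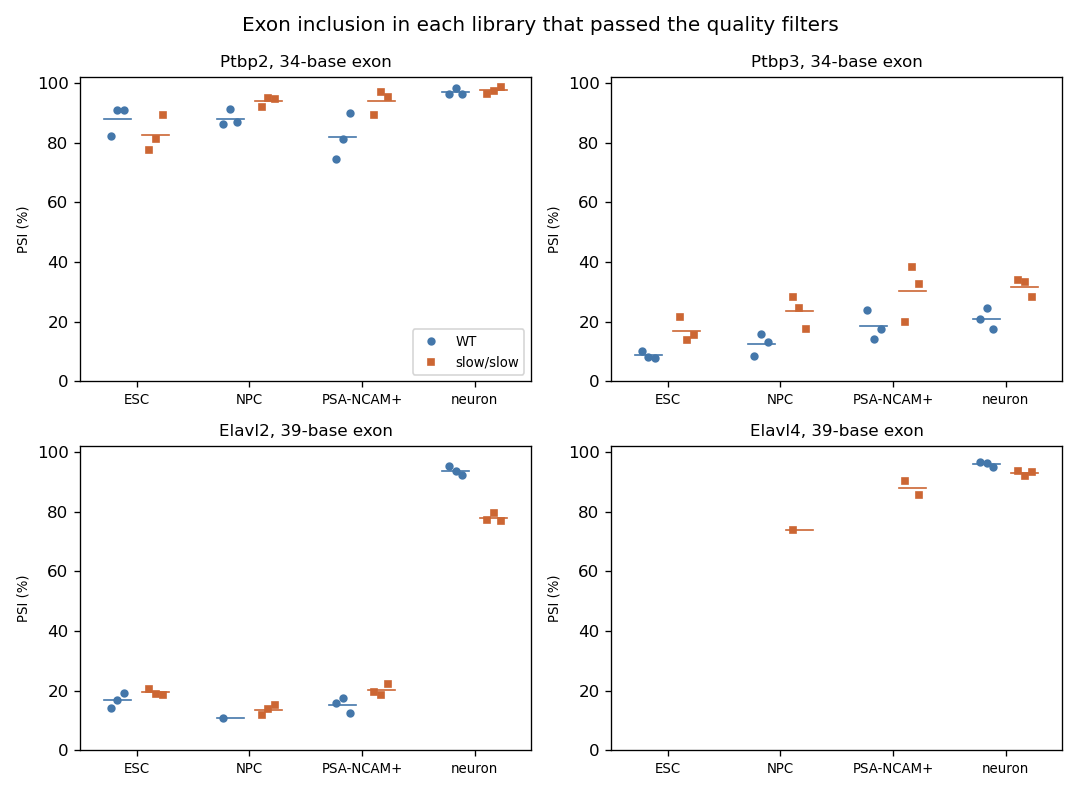
PSI (%) of 4 short exons in each library that passed the quality filters, by stage; points are libraries and short lines group means, with WT as circles and slow/slow as squares. The 39-base exon of Elavl2 is at 77.1 to 79.5% in slow/slow neurons and 92.4 to 95.3% in WT neurons, and at most 22.1% in every earlier library shown.

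The 34-base exon of Ptbp1 (chr10:79324759-79324792 in mm9) failed the balance filter in every library and was not tested. Its listed PSI was between 93.9 and 99.6% in all 24 libraries. The 34-base exon of Ptbp3 (chr4:59559021-59559054 in mm9), singled out after its values were seen, was included in a minority of transcripts. In ESCs its PSI was 10.1, 8.01 and 7.99% in WT and 21.6, 13.7 and 15.4% in slow/slow libraries. In NPCs it was 8.60, 16.0 and 13.2% in WT and 28.4, 24.5 and 17.4% in slow/slow libraries. In neurons it was 21.1, 24.5 and 17.5% in WT and 33.9, 33.2 and 28.2% in slow/slow libraries. At these 3 stages all slow/slow libraries lay above all WT libraries, but the posterior probabilities of 0.919, 0.910 and 0.914 did not reach the threshold. In PSA-NCAM+ cells the values were 23.9, 14.3 and 17.6% in WT and 19.7, 38.2 and 32.6% in slow/slow libraries. They overlapped through replicate 1 alone, and without both replicate 1 libraries the exon was called, which made 2 member exons called at this stage.

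The 39-base exon of Elavl2 (chr4:90920832-90920870 in mm9) held the clearest change. Its PSI in WT neurons was 95.3, 93.5 and 92.4%, from at least 795 reads, and in slow/slow neurons 77.1, 79.5 and 77.1%, from at least 243 reads. The groups did not overlap, and the difference was -15.8 points (posterior probability 1.0; limma FDR 0.00514). In slow/slow cells its inclusion rose by 64.3 points from NPCs to neurons. That step was not tested in WT cells, since 2 of the 3 NPC libraries failed the coverage filter. In ESCs the PSI was between 14.2 and 20.6% in both genotypes, and in PSA-NCAM+ cells between 12.6 and 22.1%. In neurons the homologous exon of Elavl4 stood at 96.6, 96.5 and 95.1% in WT and 93.7, 92.1 and 93.4% in slow/slow libraries, a difference of -3.01 points that was under the threshold. That of Elavl3 was between 98.0 and 98.9% in all 6 neuron libraries.

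A 91-base exon of Elavl2, also singled out after its values were seen, could not be tested because slow/slow neuron replicate 3 failed the filter. Its PSI was 35.3, 31.0 and 33.2% in WT and 18.8, 15.8 and 18.2% in slow/slow neurons. The most read exon of Elavl1, of 226 bases, was between 97.0 and 100% in every library, and that of Ptbp3, of 93 bases, between 98.8 and 100%. The 104-base exon of Elavl4 and the 204-base exon of Srrm4 were at 99.1 to 100% in the neurons of both genotypes. The 79-base exon of Srrm3 was at 1.31 to 3.42% in WT and 5.49 to 7.17% in slow/slow neurons and was not tested, and the 56-base exon of Ptbp1 was at 0.04% or less in every library. Of the other exons of Ptbp2, 8 were at 92.0 to 100% in every library and 1, of 63 bases, at 0.0 to 3.04%. Before the neuron stage none of the exons of Srrm3 and Srrm4 was tested in any comparison.

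Some exons of known targets of PTB proteins and of Srrm4 changed in neurons. From WT NPCs to WT neurons, 4 of 9 exons tested of the PTB targets were more included, by 90.6 points in Gabbr1, 64.6 in Pkm, 51.7 in Clta and 20.2 in Dlg4. In slow/slow cells 3 of 5 were, by 83.5 points in Gabbr1, 39.7 in Pkm and 31.6 in Clta. These steps called 6.48% and 3.72% of all exons tested. Of the Srrm4 targets, 4 of 38 were more and 1 less included in WT, and 4 of 37 more in slow/slow cells. An exon of Apbb1 rose by 87.1 points in WT and 71.7 points in slow/slow cells, and one of Kif1b by 78.2 and 53.7 points. Among genes spliced by PTB proteins (Dlg4, Gabbr1, Clta, Cltb, Pkm and Src), 3 of 12 exons tested were called between the genotypes in neurons (3.55% of all exons tested), all less included in slow/slow cells. The 54-base neuronal exon of Clta, a clathrin light chain, was at 52.6% ± 4.5 (SD, n = 3) in WT and 32.2% ± 0.90 in slow/slow neurons. The 167-base exon of Pkm, pyruvate kinase, was at 68.5% ± 4.3 and 49.4% ± 0.80, and the 18-base exon of Src at 72.9% ± 3.3 and 57.0% ± 1.3. Among genes spliced by Srrm4 (Rest, Cpeb4, Itsn1, Ptk2, Apbb1 and Kif1b), 3 of 44 were called, all less included. They were a 249-base exon of Kif1b (91.9% ± 0.34 in WT and 76.1% ± 4.0 in slow/slow neurons), an 18-base exon of Kif1b (82.7% ± 0.82 and 68.9% ± 7.0) and the 6-base microexon of Apbb1 (89.3% ± 1.9 and 75.7% ± 0.66). In NPCs 1 of 37 exons of the Srrm4 targets was called and 0 of 5 of the PTB targets (2.93% of all exons tested). In ESCs and PSA-NCAM+ cells 0 were called in either set (0.809% and 0.966% of all).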

How the data were processed

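RNA was sequenced from 24 samples, 3 replicates of WT and slow/slow cells at each of 4 stages. For each sample the authors deposited gene-level read counts without normalization, together with their mean RPKM per group, both made with vast-tools on mm9. Whether counting used the strand is not stated. The authors also deposited the percent of inclusion (PSI) of each splicing event per sample, with quality scores and read numbers. The 8 columns of the authors' own comparison (fold changes and FDR values) were not used. The number of per-sample columns that no sample could be given was 0. The study's methods state 3 independent differentiations for ESCs, NPCs and neurons. The labels do not say which samples share one. For PSA-NCAM+ cells, p-values measure the spread between these samples, which may be technical.

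The members and lists were chosen with earlier results of these data known. Of 22667 genes listed, 1114 had no values, and 16627 passed edgeR's filter on low counts. Counts were scaled by TMM and fitted over all 24 samples with edgeR 4.0.16 (quasi-likelihood, R 4.3.3), with Benjamini-Hochberg FDR under 0.05 taken as called. SE came from the F statistic. CPM used TMM library sizes. Library totals set the precision of the low genes, and below 3 counts no fold is given.

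Exons were tested where all samples compared passed the coverage and balance filters, with balance not applied to microexons, for which it is blank. An exon was called at a PSI difference over 10 points and a posterior probability over 0.95. The probability came from beta distributions on the reads of each replicate, which were combined over replicates so that their spread was kept. All 9 members were named, together with the 3 largest called changes among related regulators, exons called in any comparison, the most read exon of each other member, the 34-base exons of Ptbp1 and Ptbp2, the 2 genes nearest to each member by root-mean-square difference, and the targets with the largest PSI differences. Some results under these rules are not reported here: the genes nearest to Elavl3 and the targets of neuronal Elavl proteins. Alternatives were DESeq2 1.42.0, other scalings, no filter, the replicate number as a block, single stages, a 2-fold minimum, a 15-point PSI minimum, limma 3.58.1 on logit inclusion, and single libraries left out. Leaving out both PSA-NCAM+ replicate 1 libraries was chosen after seeing the data. The scripts were tested on simulated data. Same-numbered PSA-NCAM+ samples of the 2 genotypes deviated together (correlations 0.586, 0.593 and 0.462). The deviations were taken from means of 3 replicates, so these 3 values are not independent of each other. Whether the numbers pair the samples cannot be told from them. A point mutation cannot be checked from the counts of Polr2a. Exon sequences came from GENCODE M21 transcripts on GRCm38, and no coordinates were converted between builds.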

Additional observations from a re-analysis of the deposited data

Results flagged for a closer look

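For 11 results the genotype change differed between 2 stages by the interaction test of edgeR. The values are changes of the log2 genotype difference, ± SE, with FDR. Comparisons that share the NPC samples are not independent of each other.

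From ESCs to NPCs the difference increased for Ptbp2 (0.69 ± 0.11, FDR 1.79e-04) and Srrm4 (1.46 ± 0.39, FDR 0.00962) and decreased for Elavl3 (-1.53 ± 0.44, FDR 0.0149). From NPCs to PSA-NCAM+ cells it increased for Ptbp2 (0.39 ± 0.11, FDR 0.0239) and Elavl4 (1.32 ± 0.42, FDR 0.041). The call of Elavl4 was lost in 9 of the 12 fits that left out 1 library, and that of Ptbp2 without slow/slow NPC replicate 1 (0.35).

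From NPCs to neurons the difference decreased for Ptbp1 (-0.69 ± 0.17, FDR 0.0022), Ptbp2 (-0.76 ± 0.11, FDR 1.16e-05), Srrm4 (-1.05 ± 0.37, FDR 0.022), Elavl2 (-1.80 ± 0.25, FDR 7.33e-06), Elavl3 (-1.72 ± 0.39, FDR 0.00102) and Elavl4 (-2.34 ± 0.39, FDR 4.32e-05). The call of Srrm4 was lost without WT NPC replicate 2 (-0.98), WT NPC replicate 3 (-0.97) or slow/slow NPC replicate 3 (-0.89).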

How the results depend on the processing

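Over all alternatives, the named genes and exons kept their direction and side of the threshold 1778 times, lost the call 54 times, gained it 33 times and turned direction 56 times. Counts stayed within 1.5 times 288 times and moved beyond 50 times. The cause was not tested for any of these. Low counts before the neuron stage limit Srrm3, Srrm4, Elavl3 and Elavl4, and few reads limit most exons there.

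Upper-quartile scaling moved the median of all genes by 0.14 for the genotype change in neurons, -0.27 for the WT step from NPCs to neurons and 0.18 for the interaction from NPCs to neurons. The share of higher calls then went from 45.2 to 59.2% for the first and from 44.9 to 57.3% for the last. It gave 12 related regulators in neurons, 3 members for slow/slow NPCs against ESCs, and turned Ptbp3 in NPCs (-0.012), Ptbp1 in neurons (0.0096), Ptbp1 for WT PSA-NCAM+ against NPCs (-0.038), Elavl1 for WT neurons against NPCs (-0.085) and the interaction of Srrm3 from NPCs to neurons (0.15). DESeq2 size factors turned Ptbp3 in NPCs (-0.0020) and the interaction of Srrm3 (0.013), as did the DESeq2 Wald test (-0.0020 and 0.012). No filter turned Ptbp1 for WT PSA-NCAM+ against NPCs (-0.0036).

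With the replicate block, Ptbp1 for WT PSA-NCAM+ against NPCs turned (-0.0047), 5 members had an interaction from ESCs to NPCs, and Elavl3 passed in neurons (-0.56, FDR 0.0477). The 7 members called in PSA-NCAM+ cells, where same-numbered samples deviated together, were 7 with the block too. Same-number correlations elsewhere were 0.398, -0.211 and -0.259 in ESCs, -0.162, -0.176 and -0.0419 in NPCs, and -0.105, -0.0120 and -0.0566 in neurons. Whether same-numbered samples share a differentiation cannot be told from these values.

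Fits on single stages gave 9 related regulators in ESCs, 4 members and 4 related regulators in PSA-NCAM+ cells, and 7 members and 16 related regulators in neurons. A 2-fold minimum gave 2 members in ESCs, 0 in neurons, 4 for WT NPCs against ESCs, 1 for WT PSA-NCAM+ against NPCs, 3 and 2 for these steps in slow/slow cells and 1 for the interaction from NPCs to PSA-NCAM+ cells. It gave 0, 3, 1 and 1 related regulators along the stages. Without both PSA-NCAM+ replicate 1 libraries, 4 members passed for WT PSA-NCAM+ against NPCs, where Elavl1 turned (0.040), 6 passed for the interaction, 2 exons were called between genotypes and the 34-base exon of Ptbp2 turned from slow/slow NPCs to PSA-NCAM+ cells (2.23 points).

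A 15-point minimum gave 0 exons in PSA-NCAM+ cells and 0 from slow/slow ESCs to NPCs, and limma gave 0 and 0, with and without the replicate block. In logits, limma gave -0.15 (-0.15 with the block) for the 204-base exon of Srrm4 in neurons, 0.14 (0.098 with the block) for the 34-base exon of Ptbp2 from slow/slow NPCs to PSA-NCAM+ cells and 0.067 (0.067 with the block) for the 93-base exon of Ptbp3 from slow/slow NPCs to neurons.

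Leaving out single libraries gave 0 to 5 members for the interaction from NPCs to PSA-NCAM+ cells and 3 to 5 related regulators in ESCs. Exon counts ranged from 0 to 1 for slow/slow and WT steps and for the genotypes in NPCs, from 0 to 2 in PSA-NCAM+ cells and from 1 to 3 in neurons. Log2 changes ranged across 0 for Ptbp3 in NPCs (-0.0046 to 0.11) and PSA-NCAM+ cells (-0.027 to 0.21). From WT NPCs to PSA-NCAM+ cells they did for Ptbp1 (-0.072 to 0.084), Srrm3 (-0.087 to 0.33), Elavl1 (-0.13 to 0.040) and Elavl4 (-0.011 to 0.19), and in slow/slow cells for Elavl1 (-0.22 to 0.0059) and Elavl3 (-0.0056 to 0.85). Srrm4 for slow/slow NPCs against ESCs ranged from -0.0021 to 0.28. Interactions from NPCs to PSA-NCAM+ cells ranged from -0.067 to 0.18 for Ptbp3, -0.086 to 0.69 for Srrm4 and -0.20 to 0.068 for Elavl1, and that of Srrm3 from NPCs to neurons from -0.10 to 0.07. In PSI points, the 226-base exon of Elavl1 ranged from -0.82 to 0.13 in PSA-NCAM+ cells and -0.44 to 0.61 in neurons. The 34-base exon of Ptbp2 ranged from -2.92 to 1.49 for WT NPCs against ESCs, -1.55 to 2.23 for slow/slow PSA-NCAM+ against NPCs and -0.18 to 1.06 in neurons, and the 39-base exon of Elavl3 from -0.055 to 0.36 in neurons. The 93-base exon of Ptbp3 ranged from -0.37 to 0.0 and 0.0 to 0.55 for WT and slow/slow NPCs against ESCs, -0.09 to 0.28 for WT PSA-NCAM+ against NPCs, -0.55 to 0.0 in ESCs and 0.0 to 0.37 in NPCs.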
